A study of Mus musculus with 3 samples.

Results

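The transcripts described here are those of the vascular endothelial growth factor (VEGF) system in the left ventricle of the mouse, 4 ligand genes (Vegfa, Vegfb, Vegfc and Pgf) and 5 receptor genes (Flt1, Kdr, Flt4, Nrp1 and Nrp2). They were chosen by gene symbol, and all 9 were found among the 15503 genes of the deposited tables, with a value in each library. Left ventricular RNA of 3 C57BL6J mice was pooled for each of 3 genotypes and sequenced as 1 library per genotype. The control pool is labelled Egln1 floxed (the series' design text calls these animals wild type), and no Cre is named for it. The second pool is labelled Egln1Tie2Cre, with Egln1 deleted by Cre recombinase under the Tie2 promoter, and the third Egln1/Hif2aTie2Cre, with Hif2a (gene symbol Epas1) deleted as well. Tie2 drives expression in endothelium and in blood-forming cells, so cardiomyocytes are not the target of this Cre. Age and sex of the mice are not given in the labels.

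VEGF ligands are secreted proteins that bind receptor tyrosine kinases on the vascular wall and govern the growth, survival and permeability of blood and lymphatic vessels. VEGF-A, the product of Vegfa, signals mainly through Kdr, while Flt1 binds VEGF-A, VEGF-B and placental growth factor (Pgf) and can hold ligand back from Kdr. VEGF-C signals through Flt4 in lymphatic vessels, and the neuropilins Nrp1 and Nrp2 are co-receptors. Vegfa is a classical target of the hypoxia-inducible factors (HIF). Egln1 encodes PHD2, the oxygen-sensing enzyme that marks HIF alpha subunits for degradation, and the study's title concerns its loss from endothelium. In the heart, cardiomyocytes are a major source of VEGF-A and VEGF-B, and endothelial cells carry the receptors.

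Values are FPKM (fragments mapped to a gene, scaled to its transcript length and to all mapped fragments), so that levels of different genes can be set beside each other within a library. With 1 library per genotype no value has a replicate spread, no p-value was computed, and no difference below has a replicate check. Read counts are not part of the files and the depth is unknown. Egln1 had 129.5 FPKM in the floxed pool, 95.7 in the Egln1Tie2Cre pool and 129.0 in the third pool. The Egln1 part of the third label is thus not seen in this gene value. RNA of whole ventricle includes cells that this Cre does not target, so the value cannot settle whether Egln1 was deleted. Epas1 had 77.4, 65.0 and 54.5 in the same order. Since the Egln1 value could not check its label, the third pool is called the library labelled Egln1/Hif2aTie2Cre. Every direction involving it rests on that label. The defining endothelial markers were present in all pools (Pecam1 at 54.7, 67.7 and 63.9 FPKM, Cdh5 at 64.3, 56.9 and 58.1, in the order floxed, Egln1Tie2Cre and labelled Egln1/Hif2aTie2Cre, used throughout for values given as a series). In RNA of whole ventricle, fewer cells of a type and less RNA per cell cannot be told apart.

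Vegfa and Vegfb made up nearly all ligand transcripts. Vegfa was 1.5-fold or more above the floxed pool in both other pools, Vegfb was nearly level, and Vegfc differed most between those pools, at a low level. In the floxed pool the ligands ranked Vegfb (179 FPKM), Vegfa (142), Pgf (4.01) and Vegfc (3.19). Vegfb stood at rank 389 and Vegfa at rank 474 among 14897 genes with a value in every library, whereas Pgf and Vegfc lay below the middle of that list, at ranks 8514 and 9196. Since no spread is available, neighbours in this order cannot be said to differ.

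Vegfa (GRCm38 chromosome 17, 46016993 to 46032369, minus strand) had 142, 220.5 and 311 FPKM. The floxed pool was lowest and the library labelled Egln1/Hif2aTie2Cre highest. Vegfa was 1.56-fold higher in the Egln1Tie2Cre pool than in the floxed pool and 2.20-fold higher in the library labelled Egln1/Hif2aTie2Cre. It was 1.41-fold higher in the library labelled Egln1/Hif2aTie2Cre than in the Egln1Tie2Cre pool. Its rank in the library moved from 474 to 316 and 270 among the same 14897 genes. All of its protein isoforms are summed in this gene value, so the balance of the matrix-bound and freely diffusing forms was not measured.

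Vegfb (chromosome 19, 6982473 to 6987651, minus strand), whose product binds Flt1 and is known in heart for effects on coronary vessels and lipid handling, had 179, 172 and 185 FPKM. The pools lay within 1.08-fold of each other, the smallest range of any ligand. Vegfc (chromosome 8, 54077606 to 54187096, plus strand), the lymphangiogenic ligand, had 3.19, 2.41 and 4.99 FPKM. Its lowest value was in the Egln1Tie2Cre pool and its highest in the library labelled Egln1/Hif2aTie2Cre, which were 2.07-fold apart. Pgf (chromosome 12, 85166635 to 85177790, minus strand), a ligand of Flt1 but not of Kdr, had 4.01, 3.63 and 4.96 FPKM and followed the same order of pools over a smaller range.

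**Figure D1:**
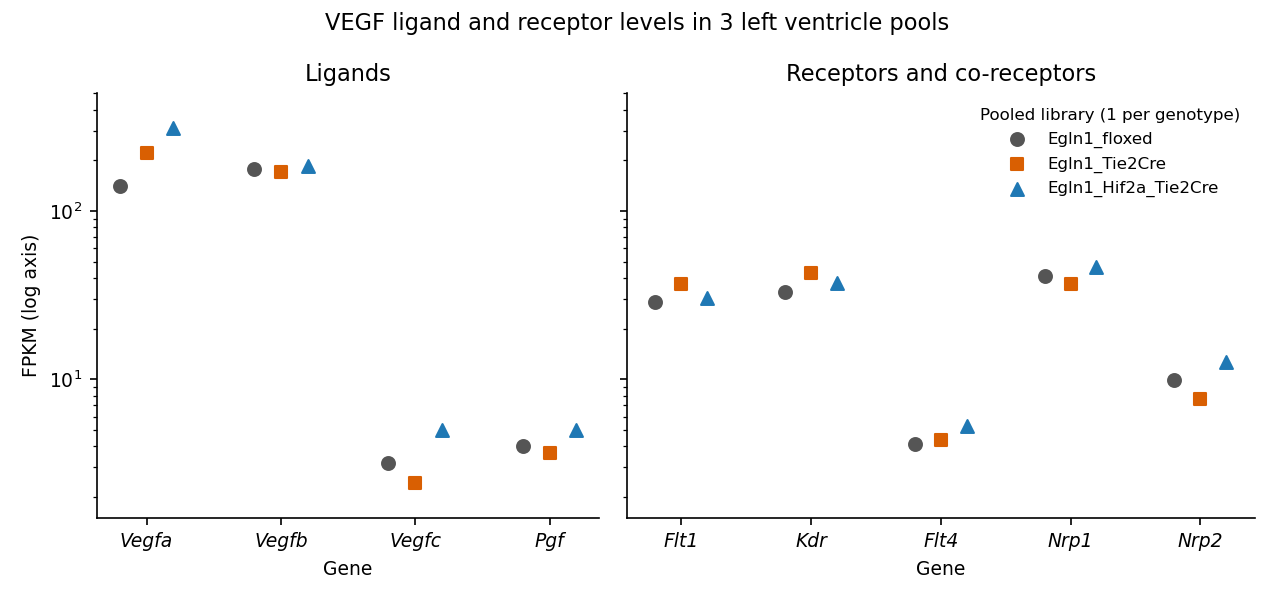
FPKM of each VEGF ligand and receptor gene (y axis, logarithmic) in the 3 pooled libraries (1 point per library and gene, so there is no error bar). Vegfa climbs from 142 to 311 FPKM across the pools, Vegfb stays between 172 and 185, and Vegfc, Pgf and Flt4 stay below 6 FPKM.

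The make-up of the ligand pool moved with Vegfa. The summed FPKM of the 4 ligands was 328 in the floxed pool, 398 in the Egln1Tie2Cre pool and 507 in the library labelled Egln1/Hif2aTie2Cre. Vegfa was 43.2% of that sum in the floxed pool, 55.4% in the Egln1Tie2Cre pool and 61.5% in the library labelled Egln1/Hif2aTie2Cre, while Vegfb was 54.6%, 43.1% and 36.6%. Vegfb was thus the most abundant ligand transcript of the floxed pool, and Vegfa that of both other pools. The ratio of Vegfa to Vegfb FPKM was 0.792, 1.29 and 1.68. Vegfc and Pgf together stayed a small part, each between 0.605% and 1.23% of the sum in every pool.

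**Figure D2:**
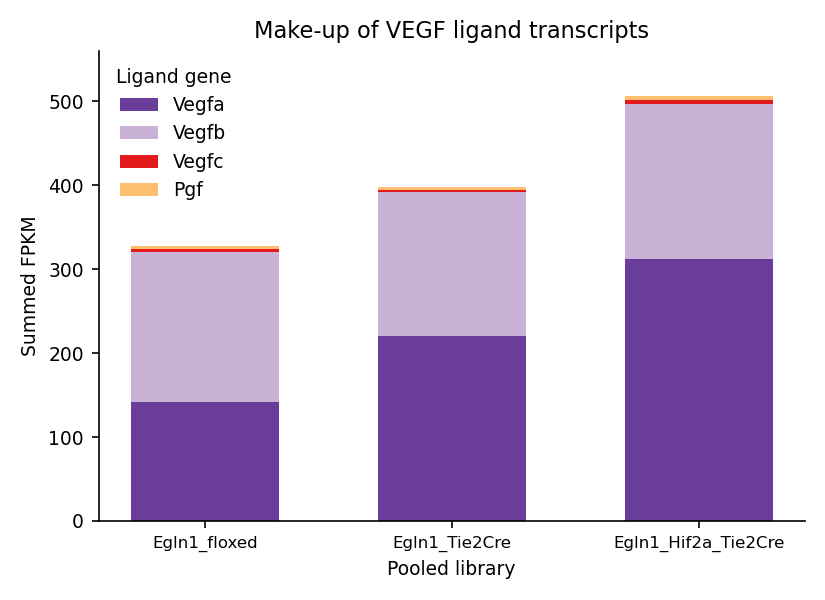
Stacked FPKM of the 4 VEGF ligand genes (y axis, from 0) in each pooled library (x axis, 1 library per bar). The Vegfa segment grows from 43.2% to 61.5% of the bar while the Vegfb segment keeps nearly the same height.

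The start regions of 4 members are printed to show the DNA of genes with different profiles: Vegfa, highest in the library labelled Egln1/Hif2aTie2Cre and lowest in the floxed pool, Vegfb, which differed least, and Vegfc and Nrp2, both lowest in the Egln1Tie2Cre pool. They are RefSeq sequences (GRCm38.p6, gene strand, 5′ to 3′) ending just before the first transcribed base, or, for Nrp2, before the first base that the GENCODE annotation counts as exon. Capitals mark the core of the hypoxia response element bound by HIF, searched as ACGTG and GCGTG on both strands. Vegfa lies at chr17:46032378-46032627 (minus strand), Vegfb at chr19:6987652-6987901 (minus), Vegfc at chr8:54077282-54077531 (plus) and Nrp2 at chr1:62703067-62703284 (plus).
Vegfa: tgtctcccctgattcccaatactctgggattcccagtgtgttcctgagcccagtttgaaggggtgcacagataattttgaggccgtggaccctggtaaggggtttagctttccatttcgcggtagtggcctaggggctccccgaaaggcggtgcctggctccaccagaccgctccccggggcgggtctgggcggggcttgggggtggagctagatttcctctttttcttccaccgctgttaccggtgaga
Vegfb: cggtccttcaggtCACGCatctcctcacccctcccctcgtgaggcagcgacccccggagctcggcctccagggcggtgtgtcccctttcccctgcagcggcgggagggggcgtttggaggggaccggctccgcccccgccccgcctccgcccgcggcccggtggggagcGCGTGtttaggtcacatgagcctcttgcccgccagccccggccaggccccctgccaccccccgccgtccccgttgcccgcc
Vegfc: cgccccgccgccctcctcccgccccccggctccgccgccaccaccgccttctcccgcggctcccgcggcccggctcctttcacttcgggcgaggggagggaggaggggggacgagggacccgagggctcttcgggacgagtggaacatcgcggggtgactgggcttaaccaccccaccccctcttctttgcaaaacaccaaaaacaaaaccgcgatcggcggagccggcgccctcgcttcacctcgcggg
Nrp2: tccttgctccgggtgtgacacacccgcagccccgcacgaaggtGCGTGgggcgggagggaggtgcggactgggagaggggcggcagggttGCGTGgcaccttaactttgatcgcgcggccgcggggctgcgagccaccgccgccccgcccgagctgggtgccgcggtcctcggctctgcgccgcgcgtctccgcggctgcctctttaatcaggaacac
In these windows Vegfa and Vegfc held 0 such cores, and Vegfb and Nrp2 held 2 each. RefSeq gives Vegfa a second start inside the gene, whose 250-base window (not printed, as most of it is exon) held 2. Of the unprinted members, Flt1 and Nrp1 held 1, Kdr 2 and Flt4 0, and Pgf held 1 and 0 at its 2 starts. Of 32851 RefSeq promoter windows of 250 bases, 38.6% held at least 1 core. The GC box GGGCGG, searched on both strands, occurred 2 times in the Vegfa window, 4 times in that of Vegfb, 2 times in that of Vegfc and 5 times in the 250-base window of Nrp2, against 32.7% of all windows with at least 1. The letters describe these short windows only, and matches farther from the start site were not searched.

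The tyrosine kinase receptors of blood vessels were higher in the Egln1Tie2Cre pool than in the floxed pool, by less than 1.5-fold. Flt1 (chromosome 5, 147561604 to 147726011, minus strand) had 28.9, 36.6 and 30.3 FPKM. Kdr (chromosome 5, 75932827 to 75978458, minus strand), the main signalling receptor for VEGF-A, had 32.9, 42.9 and 37.2. Both were highest in the Egln1Tie2Cre pool, at 1.27-fold and 1.301-fold the floxed values. In the library labelled Egln1/Hif2aTie2Cre they lay between the other pools, at 1.05-fold and 1.13-fold the floxed values. The ratio of Flt1 to Kdr FPKM hardly moved (0.877, 0.854 and 0.815). The gene value of Flt1 sums the membrane receptor and the soluble form, which were not separated here.

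Flt4 and the neuropilins had other profiles. Flt4 (chromosome 11, 49609263 to 49652739, plus strand), the receptor of VEGF-C, had 4.13, 4.32 and 5.29 FPKM, with the floxed and Egln1Tie2Cre pools 1.05-fold apart. Nrp1 (chromosome 8, 128358604 to 128503363, plus strand), the co-receptor for VEGF-A, had 41.0, 37.0 and 46.6. Nrp2 (chromosome 1, 62703285 to 62818695, plus strand), the co-receptor for VEGF-C, had 9.91, 7.68 and 12.7. For both neuropilins the Egln1Tie2Cre pool was lowest and the library labelled Egln1/Hif2aTie2Cre highest, 1.26-fold apart for Nrp1 and 1.66-fold for Nrp2. Nrp1 was the most abundant receptor transcript in the floxed pool and in the library labelled Egln1/Hif2aTie2Cre, and Kdr in the Egln1Tie2Cre pool. The ratio of Nrp1 to Kdr FPKM was accordingly 1.24, 0.864 and 1.251. The summed FPKM of the 5 receptors was 117, 129 and 132, and the ratio of summed ligand to summed receptor FPKM was 2.80, 3.10 and 3.83.

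Differences were then set against all genes. The log2 ratio of FPKM + 1 was used, which shrinks the differences of low genes, and genes with a mean of at least 1 FPKM over the pair were kept, as all 9 members were. For Egln1Tie2Cre over floxed, 1 of 9 members (Vegfa, 0.63) was at least 1.5-fold higher and 0 were at least 1.5-fold lower. Of all 11978 kept genes, 9.46% were that much higher and 8.73% that much lower, so 1 of 9 is near the background. At 2-fold the count of members was 0 in both directions, beside 3.93% of kept genes higher and 3.84% lower. Vegfa was at 0.54, under 1.5-fold, after FPKM was rescaled to a common total without mitochondrially encoded, cytosolic ribosomal protein, pseudogene and predicted genes. The other members ranged from -0.33 (Nrp2) to 0.37 (Kdr). The member median was -0.06, beside 0.02 for all kept genes, with 4 members above 0 and 5 below (3 and 6 after rescaling, where Flt4 was at -0.02). The log2 ratio of Vegfa was larger than that of 91.7% of kept genes, and 15.9% were at least as far from 0 in either direction. For Flt1 and Kdr, 40.6% and 36.2% of kept genes were at least as far from 0, so these differences were common among genes.

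For the library labelled Egln1/Hif2aTie2Cre over floxed, the background was smaller. Again 1 of 9 members (Vegfa, 1.13) was at least 1.5-fold higher and 0 lower, where 4.42% of 11888 kept genes were higher and 3.28% lower. Vegfa was also past 2-fold, as 0.538% of kept genes were in that direction (0.437% in the other), and its log2 ratio was larger than that of 99.6% of kept genes. Vegfc came next (0.52), 1.57-fold as a plain ratio of FPKM but under 1.5-fold on the FPKM + 1 scale. The remaining 7 members ranged from 0.05 (Vegfb) to 0.33 (Nrp2). All 9 members were above 0, with a median of 0.25 beside -0.0038 for all kept genes. That count depended on the scaling: 6 of 9 were above 0 after the same rescaling, with Vegfb, Flt1 and Kdr then below, and 7 of 9 when ratios were centred on the median of endothelial markers, with Vegfb and Flt1 below. Rescaling moved the median of all kept genes to -0.16 and the part of 1.5-fold calls that were higher from 57.4% to 21.1%. Vegfa stayed past 1.5-fold but not past 2-fold, at 0.95 after rescaling and 0.975 when centred on the endothelial markers.

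For the library labelled Egln1/Hif2aTie2Cre over the Egln1Tie2Cre pool, 2 of 9 members were at least 1.5-fold higher, Vegfc (0.81) and Nrp2 (0.66), and 0 were lower. The background was 9.67% of 11999 kept genes higher and 9.64% lower. At 2-fold the count of members was 0, beside 4.31% of kept genes higher and 4.08% lower. Centred on the endothelial markers, Vegfc was at 0.58 and Nrp2 at 0.43, both under 1.5-fold, and Nrp2 was at 0.58 after rescaling. Vegfa followed at 0.50, Pgf at 0.37, Nrp1 at 0.32, Flt4 at 0.24 and Vegfb at 0.11. Kdr (-0.20) and Flt1 (-0.26) were the only members below 0, joined by Vegfb (-0.12) when ratios were centred on the endothelial markers. The member median was 0.32, beside -0.02 for all kept genes. These comparisons share libraries pairwise, so their values are not independent of each other. In the authors' deposited table of each comparison, every member had a q-value of 0.9996, and the number of genes at a q-value of at most 0.05 was 69, 2 and 85 in the order above. Those q-values compare pooled libraries, not genotypes.

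**Figure D3:**
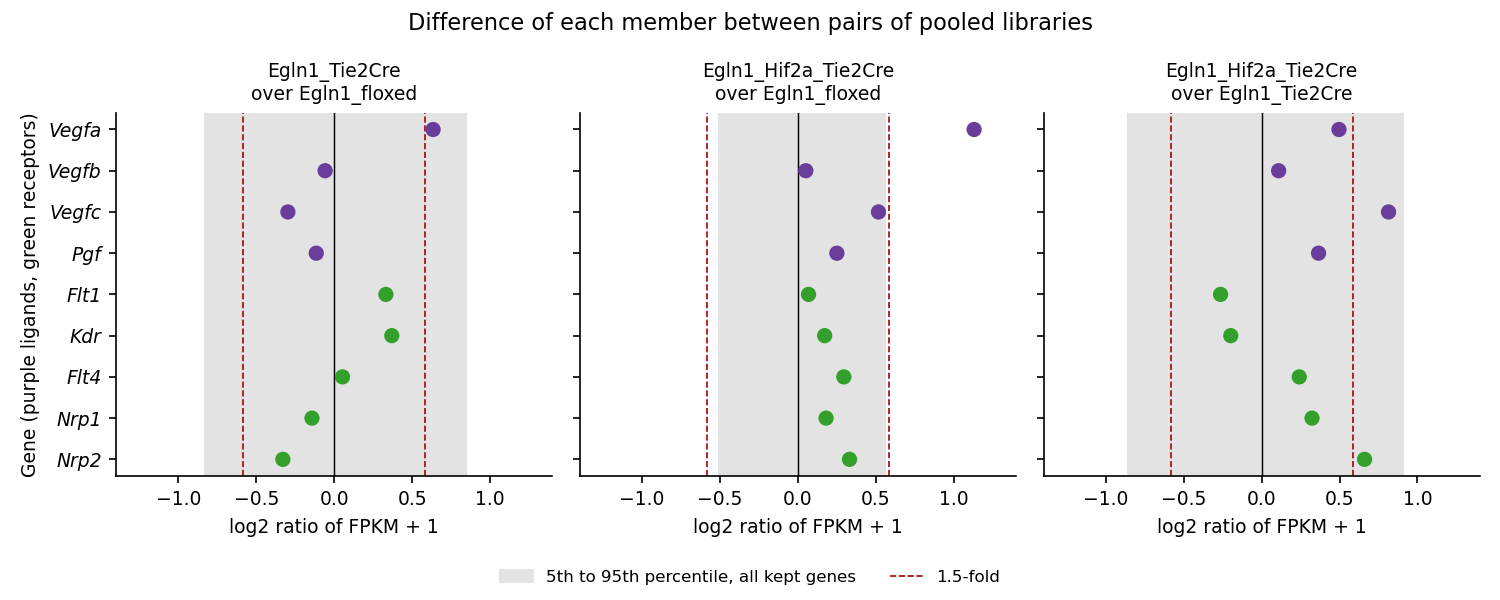
Log2 ratio of FPKM + 1 for each member (y axis) in the 3 comparisons of pooled libraries (1 point per gene, 1 library per genotype). Grey marks the 5th to 95th percentile of all kept genes and dashed lines mark 1.5-fold. Vegfa lies outside the grey band for the library labelled Egln1/Hif2aTie2Cre over floxed (1.13), and every other point lies inside its band.

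The receptors were read beside markers of the cells that carry them. All 30 endothelial markers had a value in every pool, and their FPKM summed to 2700, 3187 and 3069. Fabp4 (1202, 1678 and 1444 FPKM) and Cd36 (432, 465 and 392) were the largest terms. The sums thus mainly follow Fabp4 and do not measure endothelial content. In the Egln1Tie2Cre pool 5 of them stood past 1.5-fold above the floxed pool and 3 below it, beside 9.46% and 8.73% of all kept genes. The median log2 ratio of the markers was 0.01. Flt1 and Kdr each exceeded 21 of those 30 markers, and Nrp2 exceeded 8. The markers themselves went far apart: Vwf, the endothelial carrier of clotting factor VIII, had 20.4 and 89.2 FPKM in the floxed and Egln1Tie2Cre pools, while Aqp1, a water channel of microvessels, had 179 and 49.4. The quartiles of the marker log2 ratios were -0.35 and 0.47, a range that takes in all 5 receptors. As ratios to single markers, Kdr was 0.602, 0.633 and 0.582 of Pecam1 in the 3 pools but 0.512, 0.753 and 0.641 of Cdh5, so its position depended on the marker.

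In the library labelled Egln1/Hif2aTie2Cre against floxed, 3 of the 30 endothelial markers stood past 1.5-fold above and 0 below. All kept genes had 4.42% above and 3.28% below. The marker median was 0.16. Emcn, a sialomucin of capillaries and veins, had 44.8 against 21.4 FPKM. The receptor log2 ratios (0.07 to 0.33) lay around that median, Flt1 at -0.09 and Nrp2 at 0.17 relative to it. Vegfa exceeded all 30 markers in this comparison. Against the Egln1Tie2Cre pool, the library labelled Egln1/Hif2aTie2Cre had 9 endothelial markers past 1.5-fold above and 5 below, beside 9.67% and 9.64% of all kept genes. Relative to the marker median of 0.23, Flt1 was at -0.50 and Kdr at -0.43.

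Lymphatic and mural markers and cardiomyocyte genes were read in the same way. Of 6 lymphatic markers, 4 had a value in every pool, with Prox1, the lymphatic regulator, at 9.33, 6.26 and 8.10 FPKM and Lyve1, a hyaluronan receptor, at 8.98, 8.60 and 11.7. The lymphatic median was 0.01 over 4 kept genes for Egln1Tie2Cre and 0.34 over 5 for the library labelled Egln1/Hif2aTie2Cre, both over floxed, beside 0.05 and 0.29 for Flt4 and -0.30 and 0.52 for Vegfc. Mural markers had medians of -0.27 and -0.0036. In the first comparison 0 of 12 stood past 1.5-fold above and 2 below, beside 9.46% and 8.73% of all kept genes. In the second 2 stood above and 1 below, beside 4.42% and 3.28%. The mural markers went apart: Vtn, a pericyte-enriched matrix protein gene, had 14.4, 8.29 and 23.8 FPKM and Higd1b 11.9, 13.4 and 24.4, while Abcc9, a potassium channel subunit, had 67.4, 52.5 and 44.2 and Pdgfrb, the pericyte growth factor receptor, 17.9, 14.1 and 13.5. Cardiomyocyte markers had medians of -0.0092 over 11 kept genes and -0.17 over 12, beside log2 ratios of 0.63 and 1.13 for Vegfa. They ranged from -0.88 (Myh6) to 0.855 (Myl2) in the first comparison and from -0.75 to 0.55 in the second. Myl2, a ventricular myosin light chain, had 10992, 19883 and 15211 FPKM and in the first comparison exceeded Vegfa, whereas Myh6, a myosin heavy chain sharing 20.2% of its 50-base stretches with other genes, had 6691, 3645 and 4600. The part of these markers in the member values was not tested.

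**Figure D4:**
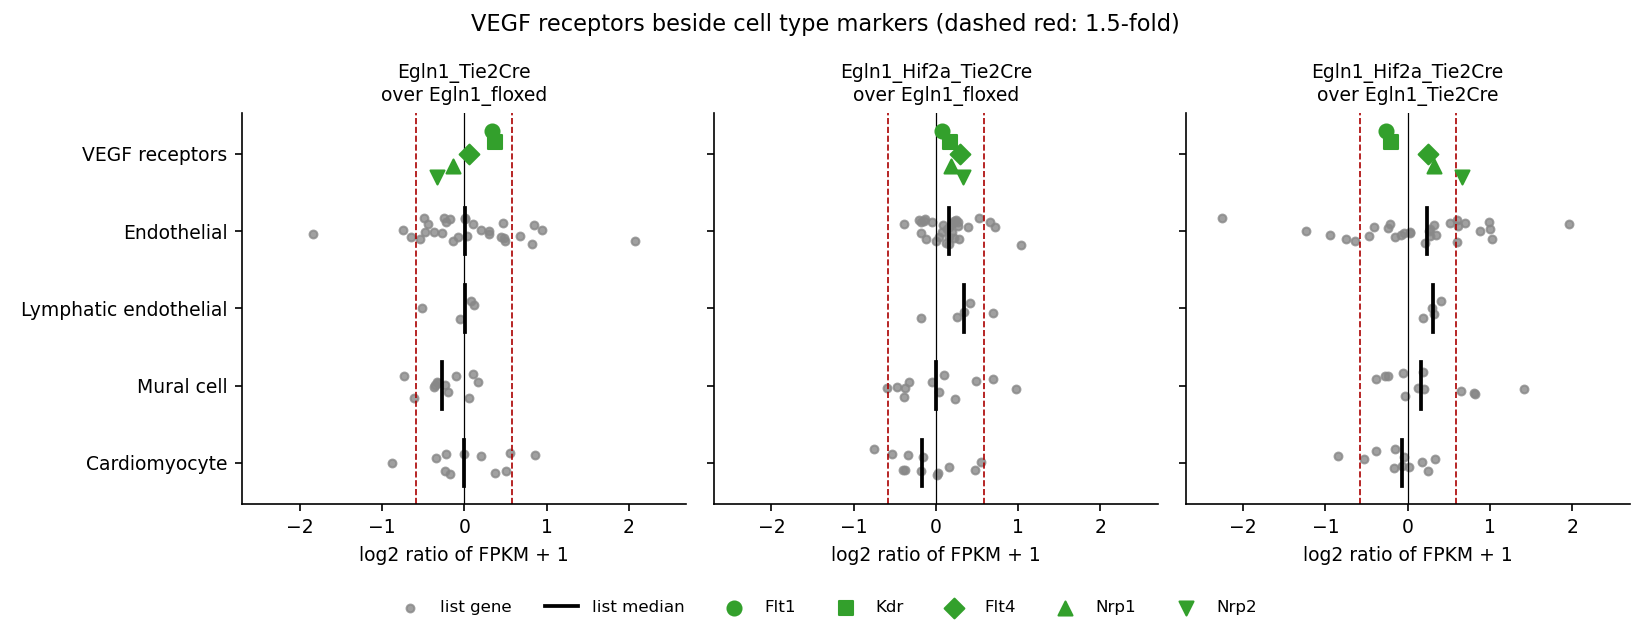
Log2 ratio of FPKM + 1 of the 5 VEGF receptors (green) and of marker genes of 4 cell types (grey points, 1 per gene, black bars for list medians) in the 3 comparisons of pooled libraries. The receptors lie within the spread of the endothelial markers in each panel, and the marker medians for the library labelled Egln1/Hif2aTie2Cre over floxed are 0.16 for endothelial and -0.17 for cardiomyocyte genes.

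Genes that act downstream of the receptors showed no common direction. Of 50 signal transduction genes, 47 were kept for Egln1Tie2Cre over floxed, of which 2 stood past 1.5-fold above and 3 below, and the median was 0.09. Nos3, the endothelial nitric oxide synthase, had a log2 ratio of 0.79 for Egln1Tie2Cre over floxed and -0.89 for the library labelled Egln1/Hif2aTie2Cre over Egln1Tie2Cre, although 20% of its 50-base sequence stretches also lie on the opposite strand of neighbouring transcripts and whether reads were counted by strand is not given. Akt1, a survival kinase, had 87.1, 133 and 63.8 FPKM, and Akt2, which shares 9.76% of such stretches with a pseudogene, had 68.6, 39.4 and 62.7. Hspb1, a small heat shock protein acting on actin, had 165, 63.5 and 246, but shares 48.8% with a pseudogene and is uncertain. For the library labelled Egln1/Hif2aTie2Cre over floxed, 0 of 47 were past 1.5-fold in either direction (median -0.07). Over the Egln1Tie2Cre pool 3 of 48 were higher and 5 lower (median -0.04). Sphk1 is among those 5, at 1.47 FPKM in the Egln1Tie2Cre pool and 0.566 in the library labelled Egln1/Hif2aTie2Cre. It was kept only through the pool where it is higher and carries no weight as a call. The shares of all kept genes, in the same order, were 9.46%, 4.42% and 9.67% higher and 8.73%, 3.28% and 9.64% lower.

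Co-receptors, phosphatases, semaphorins and other regulators of VEGF signalling were likewise mixed. For Egln1Tie2Cre over floxed, 4 of 37 kept genes stood past 1.5-fold above and 2 below (median -0.06). Ccbe1 is among those 2, at 1.75 FPKM in the floxed pool and 0.360 in the Egln1Tie2Cre pool. It was kept only through the floxed pool and carries no weight as a call. Clec14a, an endothelial lectin, had 6.86, 13.1 and 4.99 FPKM, Sema3b, a secreted semaphorin that binds neuropilins, had 11.8, 20.8 and 10.5, and Cd93, an endothelial lectin-like receptor, had 19.9, 11.4 and 24.3. Ctgf, a matricellular protein that binds VEGF-A, had 31.5, 60.4 and 30.1, with 17.2% of its stretches also found on the opposite strand of another transcript. For the library labelled Egln1/Hif2aTie2Cre over floxed, 1 of 36 was higher and 0 lower (median -0.07), the 1 being Emcn. Over the Egln1Tie2Cre pool 2 of 36 were higher and 7 lower (median 0.04). Itgb3 is among those 7, at 1.47 FPKM in the Egln1Tie2Cre pool and 0.607 in the library labelled Egln1/Hif2aTie2Cre. It was kept only through the Egln1Tie2Cre pool and carries no weight as a call either. Among all kept genes, in the same order, 9.46%, 4.42% and 9.67% were that much higher and 8.73%, 3.28% and 9.64% lower. The remaining ligand gene Figf, which encodes VEGF-D, was near the lower limit of the kept genes, at 0.800, 1.46 and 1.02 FPKM.

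Endothelial genes known to respond to VEGF went in different directions in the Egln1Tie2Cre pool. Over floxed, 5 of 17 kept genes stood past 1.5-fold above and 2 below (median 0.22). Hey1, a Notch target, had 5.54, 12.3 and 7.03 FPKM, and Nr4a1, an early-response nuclear receptor, had 5.20, 12.9 and 7.29. Aplnr, the apelin receptor, had 18.1, 3.77 and 25.8, and its ligand Apln 7.34, 2.35 and 7.93. In the library labelled Egln1/Hif2aTie2Cre over floxed, 2 of 18 were higher and 0 lower, and 16 were above 0, with a median of 0.34. This list was not recomputed under other scalings, and centring on the endothelial markers takes 0.16 off every log2 ratio here. The 2 were Esm1, an endothelial proteoglycan gene, at 0.963, 0.388 and 2.71 FPKM, and Angpt2, a Tie2 ligand, at 0.861, 2.05 and 2.03. Both were below 1 FPKM in the floxed pool and passed the filter only through the other pool. They could therefore be kept only as higher genes, and they carry no weight as calls. Angpt2 is among the 5 higher genes of the first comparison on the same terms. Genes at higher FPKM lay under 1.5-fold on this scale. Hlx, a homeobox factor of sprouting endothelium, had 3.54, 3.23 and 5.55, Fscn1, an actin-bundling protein, had 18.2, 21.4 and 27.0, and Igfbp3, a growth factor binding protein, had 10.2, 13.5 and 14.4. Over the Egln1Tie2Cre pool, 5 of 18 were higher and 4 lower (median 0.08). Esm1 is among these 5 on the same terms, as it was below 1 FPKM in the Egln1Tie2Cre pool. Beside these counts, 9.46%, 4.42% and 9.67% of all kept genes were that much higher in the same order, and 8.73%, 3.28% and 9.64% lower.

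Hypoxia targets were read because Vegfa belongs to that class. For Egln1Tie2Cre over floxed, 4 of 17 kept targets stood past 1.5-fold above and 1 below (median 0.24), and for the library labelled Egln1/Hif2aTie2Cre over floxed 4 were higher and 0 lower (median 0.35). Over the Egln1Tie2Cre pool 5 of 17 were higher and 2 lower (median 0.02). As shares of all kept genes, in the same order, 9.46%, 4.42% and 9.67% were that much higher and 8.73%, 3.28% and 9.64% lower. The counts of targets were not recomputed under other scalings. Slc16a3, which exports lactate, had 0.875, 7.43 and 18.7 FPKM, and P4ha1, a collagen prolyl hydroxylase, had 16.3, 23.2 and 36.3, both in the order of pools of Vegfa. Slc16a3 was below 1 FPKM in the floxed pool and was kept over floxed only through the other pool. Egln3, an oxygen-sensing hydroxylase, had 25.2, 19.9 and 65.3, and was highest in the same pool but lowest in Egln1Tie2Cre. Ndrg1, a stress-responsive gene, had 15.3, 33.2 and 19.0, and was highest in the Egln1Tie2Cre pool. Higd1a, a mitochondrial protein, had 60.1, 19.6 and 85.3 but shares 19.4% of its stretches with the opposite strand of another transcript, and Bnip3, a mitophagy receptor, had 89.5, 83.4 and 160 and shares 16.5% with other genes on the same strand and 44.9% on the opposite strand. Ankrd37 had 7.34, 19.8 and 9.39 and shares 17% with the opposite strand of other transcripts.

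**Figure D5:**
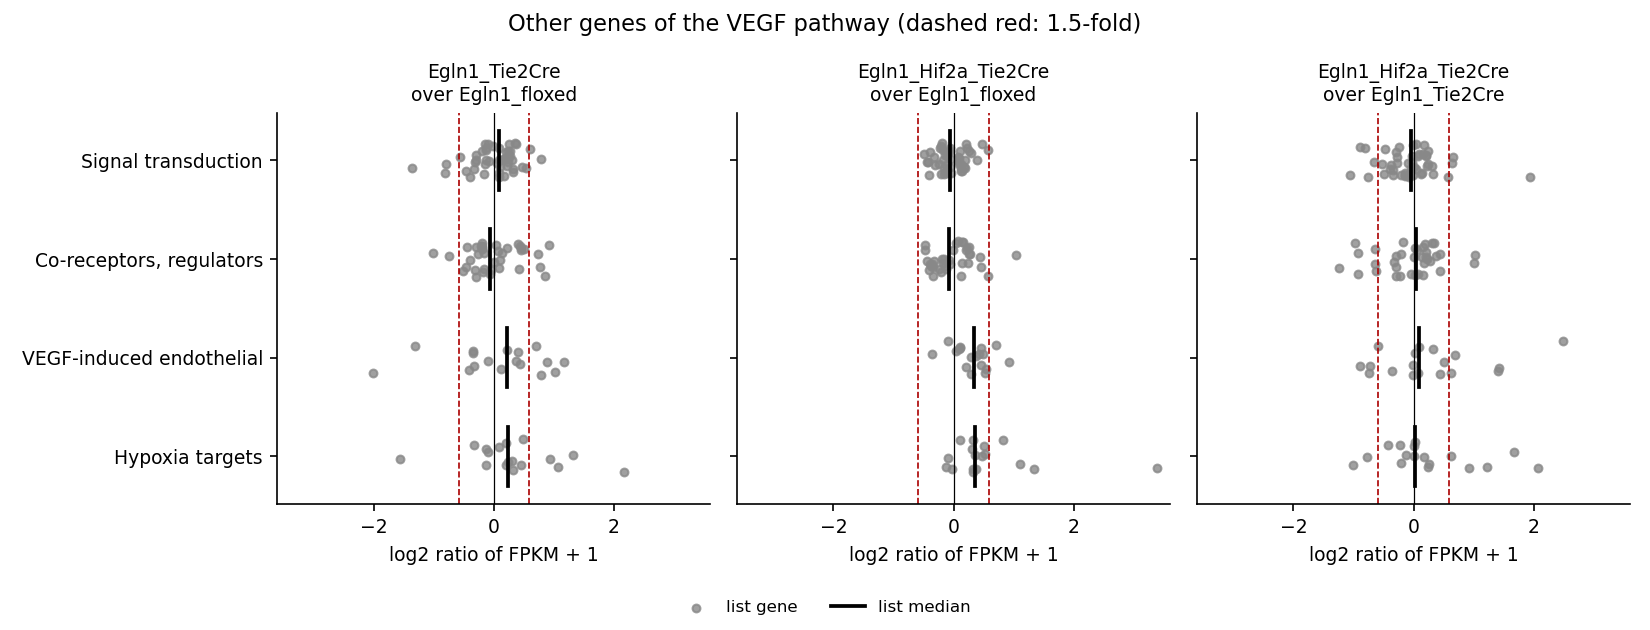
Log2 ratio of FPKM + 1 of the other VEGF pathway genes (grey points, 1 per kept gene, black bars for list medians) in the 3 comparisons of pooled libraries, with dashed lines at 1.5-fold. Medians of signal transduction genes and regulators lie within 0.09 of 0, and those of VEGF-induced endothelial genes and hypoxia targets are 0.34 and 0.35 for the library labelled Egln1/Hif2aTie2Cre over floxed.

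Vegfa was set beside genes with a like profile. Of 7866 genes with at least 5 FPKM in their highest library, without mitochondrially encoded genes, cytosolic ribosomal protein genes, pseudogenes and predicted genes (by symbol), 12.2% had the order floxed, Egln1Tie2Cre, labelled Egln1/Hif2aTie2Cre from low to high, as Vegfa did. Profiles were compared by the Euclidean distance between the log2 ratios of FPKM + 1 of both other pools over floxed. On this scale the nearest was that of Adamtsl2, an extracellular matrix glycoprotein gene, at a distance of 0.032 (6.50, 10.9 and 15.5 FPKM). Mrpl33, a mitochondrial ribosomal protein gene, followed at 0.13 (145, 242 and 302 FPKM), and Tsacc at 0.13 (1.88, 3.85 and 5.04 FPKM). The 1 added to FPKM shrinks the ratios of low genes such as Adamtsl2 and Tsacc, so their distance to Vegfa depends on it. Distances at another pseudocount were not computed. Only 1 gene lay within 0.1 of Vegfa on this scale. Around Flt1, Kdr and Nrp1 there were 317, 252 and 192 genes within that distance. The nearest were Wrap73, Hyou1 and Pofut2 for Flt1, Efemp2, Numb and Phkg2 for Kdr, and Lmcd1, Apbb1 and Parp9 for Nrp1, all within a distance of 0.0127. With 3 libraries such likeness rests on a pair of ratios per gene that share the floxed value.

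The gene models bear on how firmly these values can be read. Each of the 9 members is protein coding in GENCODE M21 (GRCm38), matched by the Ensembl identifier of the files. Only Nrp1 has an exon that overlaps another annotated gene, the microRNA gene Mir1903 on the same strand. The part of each member's 50-base stretches that occurs in transcripts of other genes was between 0% and 0.535% on the same strand, and at most 0.527% on the opposite strand, with Nrp2 highest in both. The genes range from 5179 bases (Vegfb) to 164408 bases (Flt1) in the genome, and Flt1, Kdr and Flt4 each have up to 30 exons in a coding transcript, the neuropilins 17 and the ligands 7 or 8.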

How the data were processed

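Left ventricular RNA of 3 genotypes, 1 library of 3 pooled mice each, was sequenced on an Illumina instrument. Per the submitters' processing notes, TopHat2 and Cuffdiff were used; their versions, the build and the strand setting are not given in the labels. The authors deposited, per the file headers, FPKM for both libraries of each of 3 comparisons, with a fold change (a ratio of FPKM) and a q-value per gene. Columns were assigned by the sample titles in each table's name; values recurring between tables agreed within 0.000879 (relative). No gene had an FPKM of 0 (0 genes).

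Log2 ratios of FPKM with a pseudocount of 1 were computed with Python 3.11.15 and pandas 2.3.3 over genes whose mean FPKM reached 1, and counted past 1.5-fold. Counting was tested on simulated data. No p-value was computed, since 1 library per genotype gives none. Precision is unknown, as FPKM keeps no depth.

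The members and the gene lists (signal transduction, regulators, VEGF-induced genes, hypoxia targets, and endothelial, lymphatic, mural, cardiomyocyte, fibroblast, leukocyte and erythroid or platelet markers) were chosen with earlier results of these data known. Named were all 9 members. Of each list, up to 4 genes were named with the largest log2 ratio in a comparison where the higher library reached 5 FPKM. Also named were Pecam1, Cdh5, Prox1, Egln1 and Epas1 as checks, and the 3 nearest profiles of Vegfa, Flt1, Kdr and Nrp1. Tek and Tie1 were planned as checks too. In the floxed, Egln1Tie2Cre and labelled Egln1/Hif2aTie2Cre pools, Tek had 16.5, 23.6 and 17.5 FPKM and Tie1 33.4, 33.6 and 34.2. Figf, Esm1, Angpt2, Itga2b, Fabp4, Cd36, Sphk1, Itgb3 and Ccbe1 fall outside these rules and were picked after their values were seen. List genes were matched to Ensembl identifiers through GENCODE M21. Alternatives were another pseudocount, filter, fold threshold and scaling.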

Additional observations from a re-analysis of the deposited data

How the results depend on the processing

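Counts of members past 1.5-fold were recomputed under 8 other settings in each comparison and direction. Of these, 37 of 48 stayed within 1.5 times the reported count and 11 moved. This tally does not measure how stable the calls are. The reported counts of lower members were 0 in every comparison, and all but 1 of their recomputed counts stayed 0. Dropping the filter could not move a count, since all members were already kept. All but 1 of the 11 moved counts were counts of higher members. For Egln1Tie2Cre over floxed, the count of higher members (1, Vegfa) was 0 at a 2-fold threshold, 3 at a looser threshold and 0 after FPKM was rescaled without mitochondrially encoded, cytosolic ribosomal protein, pseudogene and predicted genes, where Vegfa was at 0.54. The count of lower members was 1 at the looser threshold. For the library labelled Egln1/Hif2aTie2Cre over floxed, the count of higher members was 2 with a pseudocount of 0.1, which adds Vegfc (0.63), and 3 at the looser threshold. Over the Egln1Tie2Cre pool, the count of higher members (2) was 1 at a mean FPKM of at least 5, which leaves Vegfc out, 0 at 2-fold, 5 at the looser threshold, 0 when centred on the endothelial markers and 1 after rescaling.

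The sign of Vegfa, Vegfc, Pgf, Nrp1 and Nrp2 was the same under every setting computed for them in all 3 comparisons. Another pseudocount or filter cannot change a sign, so only the centrings and the rescaling bear on this. After rescaling, Nrp1 was at only 0.0047 for the library labelled Egln1/Hif2aTie2Cre over floxed. Centring on the endothelial markers moved the part of 1.5-fold calls that were higher from 57.4% to 20.6% for the library labelled Egln1/Hif2aTie2Cre over floxed and from 50.1% to 22.6% over Egln1Tie2Cre. Rescaling moved it from 52.0% to 40.6% for Egln1Tie2Cre over floxed and from 50.1% to 39.6% over Egln1Tie2Cre. No paired analysis was possible because each genotype has 1 library, so leaving out a library leaves no comparison. Depth is unknown, so no precision is given for any value.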

Other observations

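Other cell types that carry or make VEGF were read as values. Fibroblast markers had median log2 ratios of -0.06 for Egln1Tie2Cre over floxed, 0.12 for the library labelled Egln1/Hif2aTie2Cre over floxed and 0.10 over Egln1Tie2Cre. Postn, a matricellular protein of activated fibroblasts, had 22.5, 47.9 and 24.1 FPKM (floxed, Egln1Tie2Cre, labelled Egln1/Hif2aTie2Cre), and Mgp, an inhibitor of calcification, had 230.3, 512 and 263, while Dpt, a matrix protein, had 48.4, 36.9 and 71.4. Leukocyte markers had medians of -0.12, 0.32 and 0.27 over 14 kept genes. S100a8, a calcium-binding protein of neutrophils, had 0.489, 22.7 and 3.32 FPKM, whereas C1qa, a complement gene of macrophages, had 42.1, 28.5 and 60.3. Erythroid and platelet markers had medians of 0.16, -0.42 and -0.56 over 5, 6 and 5 kept genes. These medians are uncertain. The globin genes Hba-a1, Hbb-bt and Hbb-bs among them share 72.3%, 58.3% and 53.2% of their 50-base stretches with other genes. Pf4, a platelet chemokine also made by macrophages, had 19.1, 21.4 and 29.1 FPKM, and Itga2b, a platelet integrin, had 1.48, 0.312 and 0.667. Platelets store VEGF protein, but platelet content was not measured here. Summed FPKM of the 15 leukocyte markers with a value in every pool was 253, 250.2 and 379.5.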
